A study of Mus musculus with 9 samples.

Results

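The genes described here are 41 core regulators of the mammalian cell cycle: cyclins, cyclin-dependent kinases (CDKs) and their inhibitors, the E2F factors with their partner DP1 and the pocket proteins, the Myc network, the Cdc25 phosphatases with Wee1, and the mitotic transcription factors FoxM1 and B-Myb. They were chosen by symbol. Each gene was read from the probe set that the platform annotation assigns to that symbol alone, taking the one with the highest mean where there were several. By that rule 39 of the 41 were measured, among 19938 genes in all. Cdkn1a shared its probe set with a second gene symbol, and Ccnb1 was not analysed here.

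Total RNA of 9 mouse liver samples was hybridised to Affymetrix Mouse Gene 1.0 ST arrays, 1 array per sample. The 5 HCC arrays are of hepatocellular carcinomas from bitransgenic AFP-Cre/Rosa26-lsl-NICD mice (AFP-NICD), in which Cre recombinase under the promoter of alpha-fetoprotein, a protein of fetal liver and of many liver cancers, turned on the intracellular domain of Notch1 (NICD) from the Rosa26 locus. The 4 control arrays are of healthy livers from monotransgenic Rosa26-lsl-NICD mice, which carry the same silent NICD allele and no Cre. All mice were of a hybrid 129 x C57BL/6 background and 6 to 12 months old. No sample with AFP-Cre alone was analysed here, and the labels do not say which animal each array came from. The p-values below therefore speak of array-to-array spread, which may be technical in part.

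A cell leaves rest when D-type cyclins with CDK4 and CDK6, and then E-type cyclins with CDK2, phosphorylate the pocket proteins RB, p107 and p130, which releases E2F factors to switch on genes of DNA synthesis. Cyclin A and CDK1 with cyclin B then carry the cell through S phase and mitosis, a late programme that is transcribed through B-Myb, FoxM1 and the MuvB complex. Hepatocytes of the adult liver are mostly at rest and re-enter this cycle after tissue loss or in tumours. Myc, as a dimer with Max, drives cell growth and is itself a target of Notch in T cells.

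Promoters of 5 of these genes are shown because the results turn on them: Rbl1 (p107) passed the test, Cdk1 and Cdkn3 had large differences between groups that did not overlap, Ccnb2 varied most among the tumours, and Cdk4, the kinase of the D cyclins, also had groups that did not overlap. The sequences are from RefSeq (build GRCm38.p6), 250 bases before and 50 after the annotated start, in 5′ to 3′ direction. Capitals mark matches, on either strand, to E2F sites (TTTGGCGC, TTTCGCGC, TTTCCCGC or TTTGCCGC), to the cell cycle homology region bound by MuvB (CHR, spelled TTTGAA with its variants TTCGAA and also TTTAAA), to the E-box of Myc and Max (CACGTG) and to the CCAAT box of NF-Y. None of these motifs contains another.
Rbl1, chr2:157204485-157204784, minus strand: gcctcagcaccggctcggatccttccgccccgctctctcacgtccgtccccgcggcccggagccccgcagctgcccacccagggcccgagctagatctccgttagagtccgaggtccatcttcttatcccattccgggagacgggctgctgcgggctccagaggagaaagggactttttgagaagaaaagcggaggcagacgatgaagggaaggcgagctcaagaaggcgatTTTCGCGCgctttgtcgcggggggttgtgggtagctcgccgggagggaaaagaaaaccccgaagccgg
Cdk1, chr10:69352863-69353162, minus strand: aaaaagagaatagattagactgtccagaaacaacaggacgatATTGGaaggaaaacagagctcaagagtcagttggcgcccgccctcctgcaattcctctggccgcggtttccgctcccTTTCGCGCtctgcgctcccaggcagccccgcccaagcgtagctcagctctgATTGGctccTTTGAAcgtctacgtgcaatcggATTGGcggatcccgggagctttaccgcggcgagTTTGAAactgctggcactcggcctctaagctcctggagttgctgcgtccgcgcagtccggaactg
Cdkn3, chr14:46760291-46760590, plus strand: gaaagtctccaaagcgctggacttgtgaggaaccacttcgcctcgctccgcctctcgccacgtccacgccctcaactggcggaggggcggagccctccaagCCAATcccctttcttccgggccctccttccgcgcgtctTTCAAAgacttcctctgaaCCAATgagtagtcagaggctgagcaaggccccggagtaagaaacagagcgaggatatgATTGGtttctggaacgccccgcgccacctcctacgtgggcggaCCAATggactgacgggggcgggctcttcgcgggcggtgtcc
Ccnb2, chr9:70421505-70421804, minus strand: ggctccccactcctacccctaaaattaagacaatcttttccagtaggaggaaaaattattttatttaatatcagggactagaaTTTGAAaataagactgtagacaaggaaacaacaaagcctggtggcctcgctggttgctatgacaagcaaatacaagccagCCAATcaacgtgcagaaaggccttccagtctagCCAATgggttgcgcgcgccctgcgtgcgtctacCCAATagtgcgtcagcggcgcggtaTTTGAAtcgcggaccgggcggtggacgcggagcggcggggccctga
Cdk4, chr10:127063285-127063584, plus strand: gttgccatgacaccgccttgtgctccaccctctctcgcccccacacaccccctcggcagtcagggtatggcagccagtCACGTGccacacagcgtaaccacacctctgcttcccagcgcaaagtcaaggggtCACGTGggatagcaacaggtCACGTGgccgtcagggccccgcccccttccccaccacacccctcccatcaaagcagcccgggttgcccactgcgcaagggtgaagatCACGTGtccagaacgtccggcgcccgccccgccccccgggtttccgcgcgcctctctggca
The Rbl1 window holds an E2F match close to the start, the Cdk1 window an E2F match with CHR and CCAAT matches, and the Ccnb2 and Cdkn3 windows CCAAT and CHR matches without an E2F match. Of these motifs the Cdk4 window holds only E-boxes. Of the 41 genes, 30 had a promoter entry used here, with 37 entries in all. An E2F match was in 29.7% of these 37 entries, against 2.26% of all 32851 promoters of the table. For the other motifs the shares were 35.1% against 28.8% (CHR), 16.2% against 7.15% (E-box) and 45.9% against 37.4% (CCAAT). Of the 12 genes whose groups did not overlap (described below), 7 had an entry, of which 4 held an E-box and 3 an E2F match. A match is a description of letters and not a bound site.

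All values below are log2 RMA intensities, given per array or as mean ± SD (n = 5 HCC and n = 4 control arrays), and a log2 change is HCC minus control liver. RMA removes background, brings the arrays to 1 distribution and combines the probes of a set by median polish. Array medians lay between 91.5 and 101 linear units. The exact same value stood on at least 2 arrays for 38.7% of all probe sets and for 12 of the 39 genes, among them Ccnd2, Cdkn3, Cdkn2a and E2f1. The probe set of Notch1, the source of the transgene, measured 7.40 ± 0.16 in HCC and 7.11 ± 0.13 in control liver (log2 change 0.29, adjusted p = 0.160). Where its probes lie relative to the NICD segment was not examined, so it does not check the transgene. Xist, transcribed from an inactive X chromosome, was high (10.68 to 11.76) on HCC arrays 1 and 2 and control arrays 1 to 3, and low (4.83 to 5.10) on the other 4. Intensities are per probe set and are compared between arrays, never between genes.

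Most of the measured regulators were on average higher in HCC, but only 1 of 39 passed the test over all genes: Rbl1, which encodes the pocket protein p107. The other 38 did not pass, and 0 were lower. Over all 19938 genes, limma called 0.858% higher and 0.16% lower at an adjusted p under 0.05. The mean was higher in HCC for 33 of the 39 and lower for 6. Over all 19938 genes it was higher for 8481 and lower for 11457. The median log2 change was 0.27 for these regulators, against -0.03 over all genes tested. At an unadjusted p under 0.05, 18 of 39 were higher, against 10.5% of all genes, and 0 were lower, against 9.85%. In 12 of 39 genes every HCC array lay above every control array, against 5.63% of all genes, and in none did every HCC array lie below, against 3.86% of all genes. With array medians subtracted, the shares of all genes were 5.17% above and 6.73% below, and the counts of these regulators were 11 and 0, E2f4 being the one whose groups then overlapped. In these bulk samples, more cycling cells and more RNA per cycling cell cannot be told apart.

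**Figure D1:**
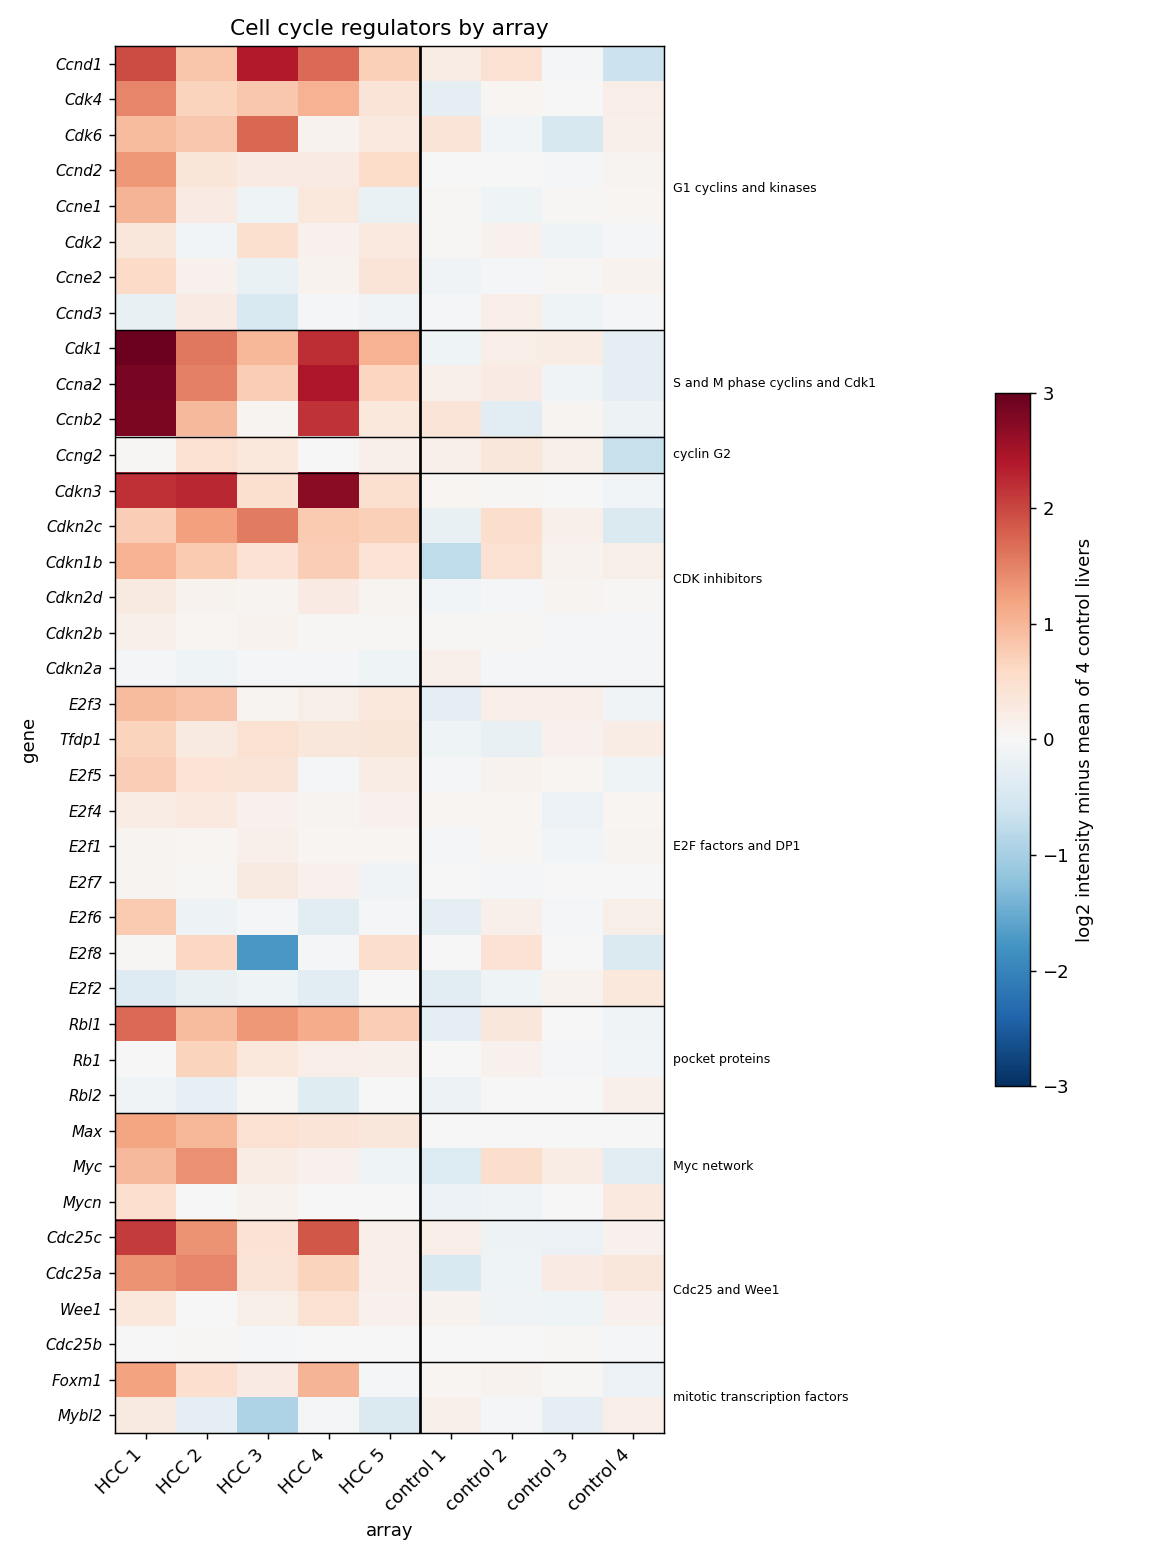
Log2 intensity of the 39 measured regulators on each of the 9 arrays, minus the mean of the 4 control livers, with genes in rows grouped by role, HCC arrays in the left 5 columns and control arrays in the right 4. Red is above and blue below the control mean; the strongest red stands on HCC array 1 for Cdk1, Ccna2 and Ccnb2, while Cdkn3 was highest on HCC array 4 and Ccnd1 on HCC array 3.

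Rbl1 rose in HCC. This pocket protein binds E2F4 and E2F5 as a repressor and is itself encoded by an E2F target gene. Its log2 intensity was 8.08, 7.34, 7.69, 7.50 and 7.13 on HCC arrays 1 to 5, against 6.13, 6.73, 6.41 and 6.29 on control arrays 1 to 4. All 5 HCC arrays lay above all 4 controls, with a gap of 0.40 between the lowest HCC and the highest control array. The means were 7.55 ± 0.36 in HCC and 6.39 ± 0.25 in control liver, a log2 change of 1.16 (2.23-fold, SE 0.19, 95% interval 0.72 to 1.60, adjusted p = 0.0392 in limma). The change kept its size when any 1 array was left out (1.02 to 1.27), but the adjusted p then exceeded 0.05 without any single control array (0.0833 to 0.138) and without HCC array 2, 3 or 4 (0.0592 to 0.0893). The other pocket proteins did not pass. Rb1, the retinoblastoma protein, measured 8.23 ± 0.25 in HCC and 7.96 ± 0.10 in control liver, with 4 of 5 HCC arrays above every control. Rbl2 (p130), the pocket protein of resting cells, measured 8.62 ± 0.17 in HCC and 8.75 ± 0.12 in control liver (log2 change -0.13, adjusted p = 0.499).

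Among the 8 G1 cyclins and kinases none passed, and the groups did not overlap for Ccnd1, Ccnd2 and Cdk4. Ccnd1 encodes cyclin D1, the growth-factor-responsive partner of CDK4 and CDK6. It measured 11.21, 10.08, 11.62, 10.93 and 9.96 on HCC arrays 1 to 5, against 9.46, 9.70, 9.21 and 8.60 on control arrays 1 to 4. Both the highest tumour, HCC array 3, and the lowest, HCC array 5, lay above the highest control (log2 change 1.52, 2.86-fold, 95% interval 0.68 to 2.35, adjusted p = 0.0849). Cdk4, the kinase that cyclin D activates, measured 10.95, 10.15, 10.30, 10.53 and 9.88 in HCC, against 9.22, 9.54, 9.50 and 9.70 in control liver. HCC array 1 was the highest of the 9 and HCC array 5 the lowest tumour (log2 change 0.87, 1.83-fold, 95% interval 0.42 to 1.32, adjusted p = 0.0735). Ccnd2, cyclin D2, measured 9.38, 8.44, 8.31, 8.31 and 8.62 in HCC, against 8.09, 8.05, 8.004 and 8.14 in control liver. The controls spanned a narrow range of 8.004 to 8.14, and HCC array 1 stood well above the other tumours (log2 change 0.54, adjusted p = 0.193, and a log2 change of 0.35 without HCC array 1). Its HCC arrays 3 and 4 carry an identical deposited value.

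Cdk6, the other kinase of the D cyclins, had 9.01, 8.89, 9.79, 8.18 and 8.37 on the HCC arrays, against 8.47, 8.002, 7.60 and 8.23 on the controls. The groups overlapped, since HCC arrays 4 and 5 lay below control array 1, and HCC array 3 was the highest, as it was for Ccnd1 (log2 change 0.77, adjusted p = 0.217). Ccnd3, cyclin D3, had a slightly lower mean in HCC (7.42 ± 0.26) than in control liver (7.53 ± 0.14; adjusted p = 0.664). The E-type cyclins, which activate CDK2 at the entry to S phase, had overlapping groups. Ccne1 measured 6.71 ± 0.48 in HCC and 6.46 ± 0.08 in control liver, with HCC array 1 at 7.48 and HCC arrays 3 and 5 below every control. Ccne2 measured 6.81 ± 0.29 and Cdk2 6.90 ± 0.21 in HCC, against 6.61 ± 0.09 and 6.67 ± 0.11 in control liver, and the intervals of all 3 changes included 0.

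The 3 measured S and M phase genes had the largest median difference of the roles (1.63), none passed, and their tumours spread widely. Cdk1, the mitotic kinase, measured 9.76, 8.42, 7.82, 9.05 and 7.88 on HCC arrays 1 to 5, against 6.70, 7.03, 7.04 and 6.54 on control arrays 1 to 4. The gap between the groups was 0.78, the widest of the 12 genes, and HCC arrays 1 and 4 were the highest tumours (log2 change 1.76, 3.38-fold, SE 0.38, 95% interval 0.90 to 2.61, adjusted p = 0.0640). Ccna2, cyclin A2 of S and G2 phase, measured 8.79, 7.46, 6.69, 8.37 and 6.59 in HCC, against 6.09, 6.20, 5.85 and 5.66 in control liver. HCC arrays 1 and 4 were far above the controls, and HCC arrays 3 and 5 were close to them without overlap (log2 change 1.63, 3.09-fold, adjusted p = 0.106). Ccnb2, cyclin B2, measured 9.99, 8.14, 7.23, 9.33 and 7.46 in HCC, against 7.54, 6.83, 7.24 and 7.01 in control liver. HCC arrays 3 and 5 lay inside the control range here, so that the log2 change of 1.27 rested on the other 3 tumours (adjusted p = 0.233). Its SD of 1.19 among tumours was the largest of the 39 genes, and 30 of the 39 had a larger SD in HCC than in control liver. The share of all genes with a larger SD in HCC was not computed, so that count does not set these regulators apart. Ccng2, the unconventional cyclin G2 of cells leaving the cycle, measured 7.84 ± 0.18 in HCC and 7.64 ± 0.45 in control liver (adjusted p = 0.606).

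**Figure D2:**
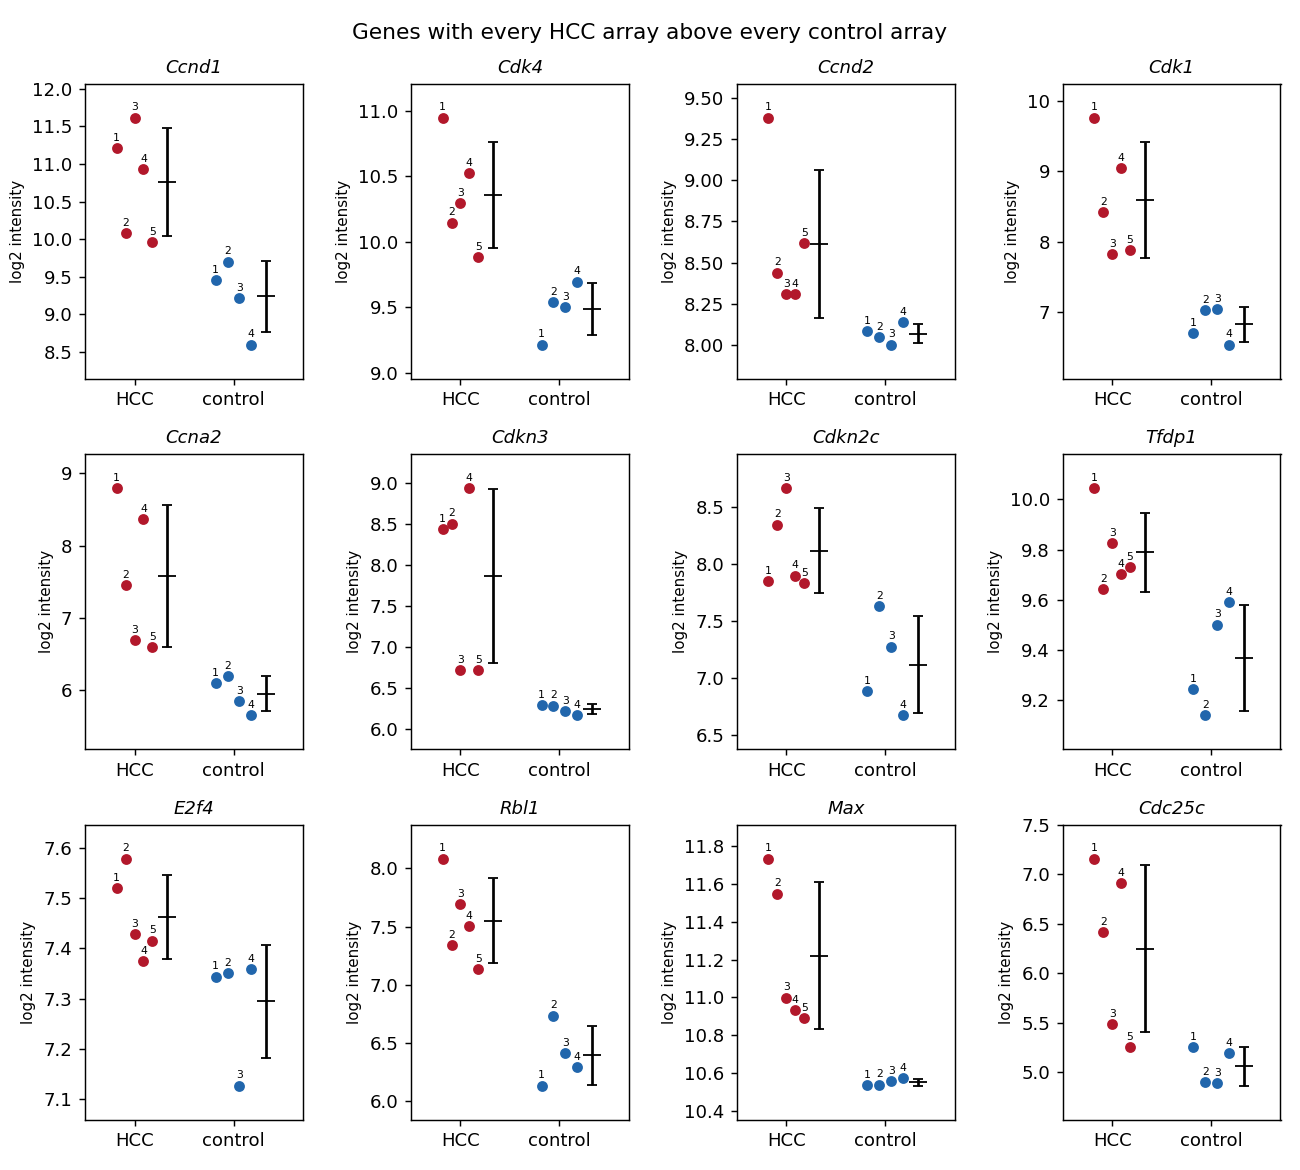
Log2 intensity of the 12 genes in which every HCC array (red, left) lay above every control array (blue, right), with the array number above each point and the mean ± SD in black (n = 5 HCC, n = 4 control). The vertical scales differ between genes, and the tumours spread widely for Cdk1, Ccna2, Cdkn3 and Cdc25c while the controls stay close together.

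The inhibitors of CDKs differed among themselves, and none of the 6 measured passed. Cdkn3, a phosphatase that acts on CDK2 and CDK1 and is itself expressed in dividing cells, measured 8.44, 8.51, 6.72, 8.94 and 6.72 on HCC arrays 1 to 5, against 6.30, 6.29, 6.23 and 6.17 on control arrays 1 to 4. HCC arrays 1, 2 and 4 were more than 2 log2 units above the control mean and HCC arrays 3 and 5, at an identical deposited value, less than 0.5 above it (log2 change 1.62, 3.08-fold, 95% interval 0.56 to 2.69, adjusted p = 0.120). Cdkn2c (p18INK4C), which binds CDK4 and CDK6, measured 7.85, 8.35, 8.67, 7.90 and 7.83 in HCC, against 6.89, 7.63, 7.27 and 6.67 in control liver. HCC array 3, the highest for Ccnd1 and Cdk6, was also the highest for this inhibitor (log2 change 1.00, 2.00-fold, adjusted p = 0.0782). Cdkn1b (p27), an inhibitor of CDK2 complexes, measured 9.44 ± 0.26 in HCC and 8.76 ± 0.53 in control liver (log2 change 0.68, adjusted p = 0.166). Control array 1 was low at 8.003, and HCC arrays 3 and 5 lay inside the control range. The second probe set of Cdkn1b gave 8.82 ± 0.27 in HCC and 8.18 ± 0.17 in control liver without overlap (log2 change 0.64, adjusted p = 0.0699 in a fit of every probe set).

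The inhibitors of the Cdkn2a-Cdkn2b locus, which brake the D cyclin kinases in stressed and senescent cells, differed little. Cdkn2a (p16 and p19ARF) measured 6.36 ± 0.03 in HCC and 6.45 ± 0.11 in control liver (95% interval of the change -0.24 to 0.06), and the probe set does not part its 2 products. Cdkn2b (p15) measured 6.74 ± 0.05 in HCC and 6.66 ± 0.04 in control liver (95% interval -0.06 to 0.21). Cdkn2d (p19INK4D) was at 6.46 ± 0.09 in HCC and 6.31 ± 0.08 in control liver, above every control on 4 of 5 HCC arrays. The intervals of these 3 genes reached at most 0.32 in either direction. Cdkn2a carries an identical deposited value on HCC arrays 1, 3 and 4 and control arrays 2 and 4. So does Cdkn2b on HCC arrays 4 and 5 and control arrays 1 and 2. How far these probe sets follow their transcripts was not tested, so narrow intervals do not show that the transcripts were unchanged.

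The E2F factors showed small differences, and none of the 8, nor their partner Tfdp1, passed. Tfdp1 (DP1), the subunit that lets most E2Fs bind DNA, measured 10.04, 9.64, 9.83, 9.70 and 9.73 on the HCC arrays, against 9.24, 9.14, 9.50 and 9.59 on the controls. The groups did not overlap, by a gap of 0.05 (log2 change 0.42, adjusted p = 0.113), and the second probe set gave 8.05 ± 0.16 in HCC and 7.73 ± 0.19 in control liver with overlap. E2f4, the repressor E2F that pairs with p107 and p130, measured 7.52, 7.58, 7.43, 7.37 and 7.42 in HCC, against 7.34, 7.35, 7.13 and 7.36 in control liver. That gap was 0.01, and the log2 change of 0.17 was small (adjusted p = 0.258). E2f5, the other partner of the pocket proteins p107 and p130, measured 6.76 ± 0.28 in HCC and 6.41 ± 0.11 in control liver, with 4 of 5 tumours above every control (log2 change 0.35, adjusted p = 0.216).

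Of the activator E2Fs, E2f1 measured 6.47 ± 0.04 in HCC and 6.39 ± 0.08 in control liver, with a 95% interval of the change of -0.06 to 0.22. It carries an identical deposited value on HCC arrays 2, 4 and 5 and control array 2. How far its probe set follows the transcript was not tested, so that interval does not show an unchanged transcript. E2f2 had a lower mean in HCC (6.19 ± 0.16) than in control liver (6.40 ± 0.28; adjusted p = 0.406). E2f3 measured 8.17, 8.07, 7.31, 7.40 and 7.53 in HCC, against 6.93, 7.41, 7.43 and 7.11 in control liver. HCC arrays 1 and 2 were high and HCC arrays 3 and 4 inside the control range (log2 change 0.48, adjusted p = 0.234), while the second probe set of E2f3 gave a change of 0.03. E2f6, a repressor that acts without pocket proteins, averaged 8.50 ± 0.43 in HCC and 8.45 ± 0.20 in control liver. E2f7, an atypical repressor, averaged 7.08 ± 0.13 in HCC and 6.999 ± 0.02 in control liver. E2f8, the other atypical E2F and with E2f7 a driver of hepatocyte polyploidy, measured 7.78, 8.37, 6.02, 7.70 and 8.28 in HCC, against 7.75, 8.20, 7.77 and 7.33 in control liver. HCC array 3 lay far below every other array, HCC arrays 2 and 5 lay above every control, and HCC arrays 1 and 4 inside the control range (log2 change -0.13, adjusted p = 0.895).

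**Figure D3:**
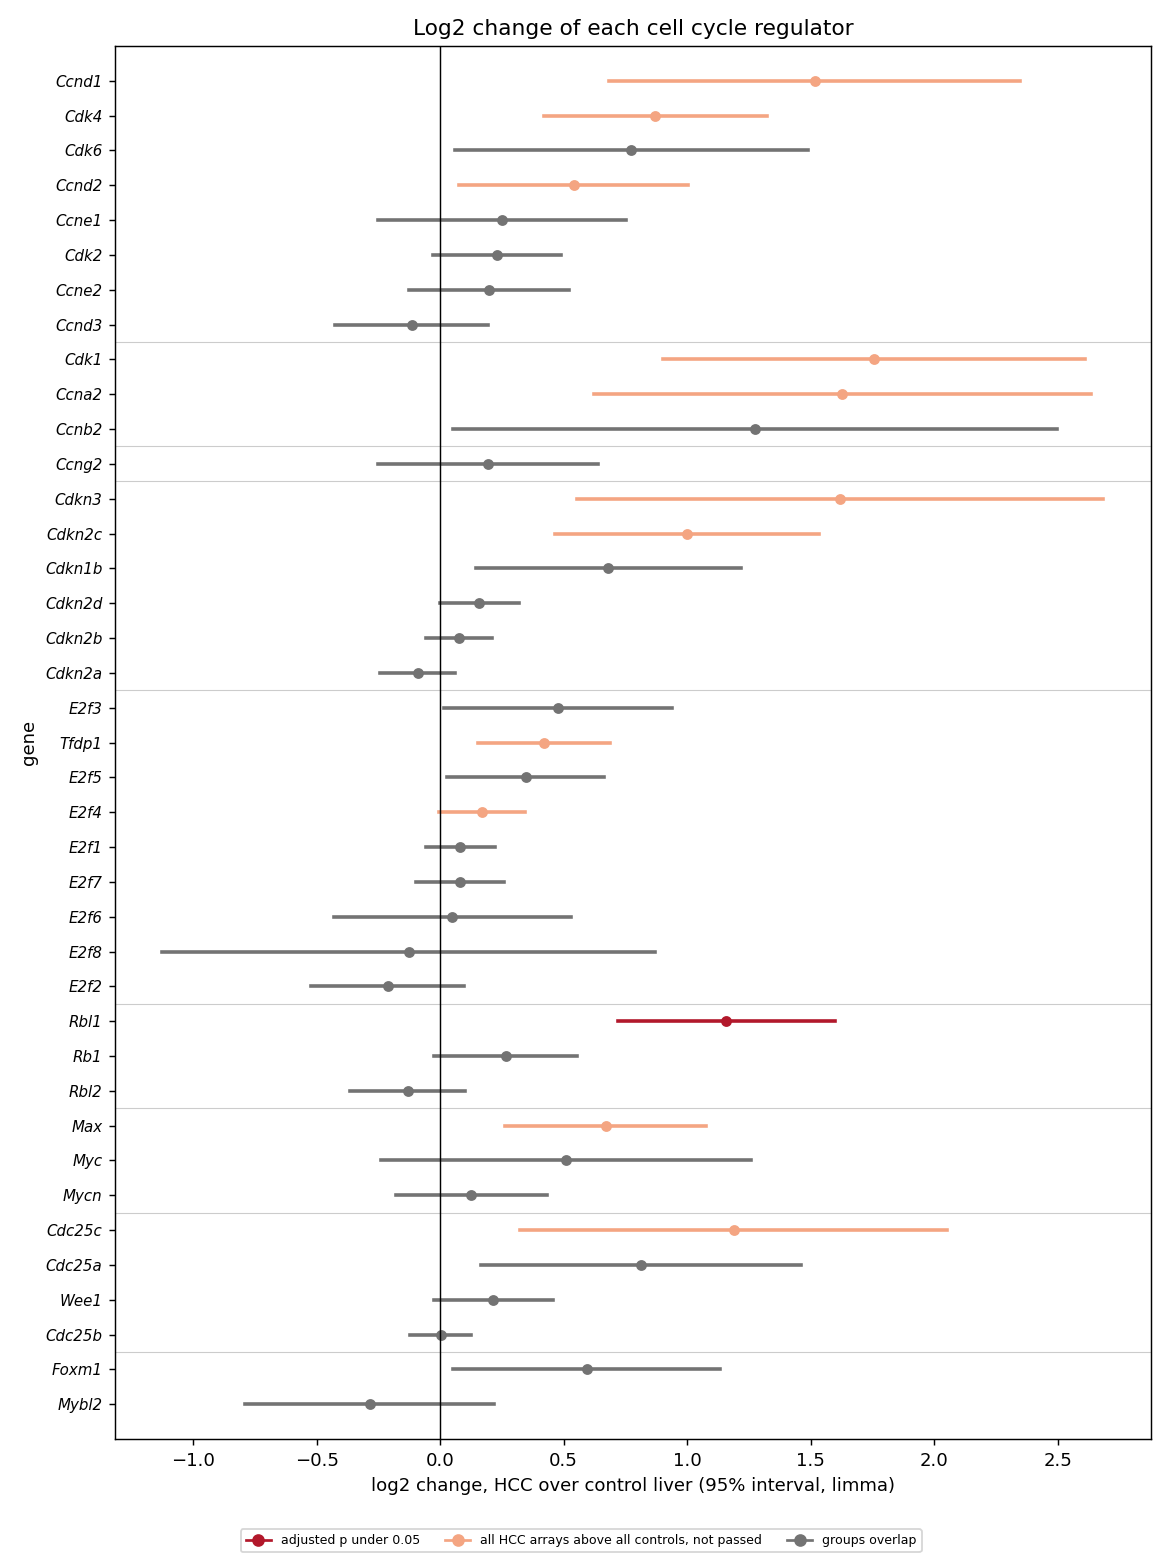
Log2 change (HCC over control liver) of the 39 regulators with its 95% interval from limma, in rows grouped by role. Rbl1 (dark red) passed an adjusted p of 0.05, the 11 genes in light red had groups that did not overlap and did not pass, and the 27 in grey had overlapping groups.

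In the Myc network, Max differed between groups more evenly than Myc. Max, the obligate partner of Myc, measured 11.73, 11.55, 10.999, 10.93 and 10.89 on HCC arrays 1 to 5, against 10.54, 10.54, 10.55 and 10.57 on control arrays 1 to 4. The 4 controls lay close together, at 10.54 to 10.57, and every tumour lay at least 0.32 above the highest of them (log2 change 0.67, 1.59-fold, SE 0.18, 95% interval 0.26 to 1.08, adjusted p = 0.104). Myc itself measured 8.76, 9.17, 8.01, 7.91 and 7.67 in HCC, against 7.39, 8.33, 8.01 and 7.45 in control liver. Only HCC arrays 1 and 2 lay above every control, and the log2 change of 0.51 had an interval of -0.24 to 1.26 (adjusted p = 0.410). Mycn, the paralog of embryonic and neural tissue, measured 6.73 ± 0.22 in HCC and 6.60 ± 0.21 in control liver (adjusted p = 0.625).

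The Cdc25 phosphatases, which remove the inhibitory phosphates that Wee1 puts on CDKs, differed among themselves. Cdc25c, which acts on CDK1 at the entry to mitosis, measured 7.16, 6.42, 5.49, 6.91 and 5.26 on the HCC arrays, against 5.26, 4.90, 4.89 and 5.19 on the controls. HCC arrays 1, 2 and 4 were more than 1 log2 unit above the highest control, whereas HCC array 5 exceeded control array 1 by only 0.0012 (log2 change 1.19, 2.28-fold, adjusted p = 0.144). Cdc25a, the G1/S phosphatase and a target of Myc and E2F, measured 7.85, 7.97, 6.91, 7.19 and 6.72 in HCC, against 6.07, 6.39, 6.75 and 6.86 in control liver. Only HCC array 5 fell inside the control range (log2 change 0.81, adjusted p = 0.169). Cdc25b was at 6.47 ± 0.02 in HCC and 6.47 ± 0.04 in control liver, a log2 change with a 95% interval of -0.12 to 0.13. It carries an identical deposited value on HCC arrays 1 and 4 and control array 2, and that interval does not show an unchanged transcript. Wee1 measured 8.86 ± 0.18 in HCC and 8.64 ± 0.13 in control liver (adjusted p = 0.291).

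The mitotic transcription factors went opposite ways on average, and neither passed. Foxm1, which activates genes of G2 and mitosis, measured 7.03, 6.34, 6.08, 6.84 and 5.79 on HCC arrays 1 to 5, against 5.87, 5.92, 5.86 and 5.64 on control arrays 1 to 4. The tumours were above every control except HCC array 5 (log2 change 0.59, adjusted p = 0.212). Mybl2 (B-Myb), the factor that joins MuvB before FoxM1 does, measured 6.84, 6.26, 5.63, 6.53 and 6.14 in HCC, against 6.72, 6.52, 6.27 and 6.77 in control liver. Its mean was lower in HCC, with HCC arrays 2 (by less than 0.01), 3 and 5 below every control and HCC array 1 above every control (log2 change -0.28, 95% interval -0.79 to 0.22, adjusted p = 0.496).

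The 5 tumours ranked differently for different genes. HCC array 1 alone was the highest tumour for 20 of the 39 genes, and HCC array 5 alone the lowest for 14, with 4 more at a value it shared with another tumour. HCC array 3 alone was the lowest tumour for 8 genes, Cdk1 and Ccnb2 among them, shared the lowest value for Ccnd2 and Cdkn3, and alone was the highest for 7, among them Ccnd1, Cdk6, Cdk2 and Cdkn2c. These counts were not made over all genes, so they do not show a trait particular to these regulators. One order, HCC array 1 above 4 above 2 above both 3 and 5, was shared by 8 of 39 genes (20.5%): Ccna2, Ccnb2, Cdk1, Cdc25c, Foxm1, Ccne1, Cdkn2d and Mybl2. The same order held in 1.67% of all genes, in 18 of 25 genes of G2 and mitosis and in 0 of 24 genes of G1/S. This order was singled out after the values were seen and is a description of 5 arrays.

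The other genes of these pathways, in lists, are given by counts. Of 38 other cyclins, CDKs and CDK regulators none passed, 18 had a positive change, and the median change was -0.01. Cks1b, a CDK-binding subunit needed for the breakdown of p27, had the smallest adjusted p among them (9.92 ± 0.67 in HCC and 8.68 ± 0.28 in control liver, adjusted p = 0.0952), and it was the 1 gene of that list whose groups did not overlap. Of 12 other E2F, RB and MuvB genes, Lin9, a core subunit of MuvB, rose to 7.07 ± 0.36 in HCC, against 6.07 ± 0.19 in control liver (log2 change 1.00, 2.01-fold, adjusted p = 0.0460), and none was lower past the threshold. That list had a median change of 0.25 and 10 of 12 positive changes. Of 15 other Myc network genes none passed, with a median of -0.03, and Ruvbl1, an ATPase cofactor of Myc, had the smallest adjusted p (0.168; 10.03 ± 0.24 in HCC and 9.66 ± 0.14 in control liver).

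Lists of genes that E2F, FoxM1 with MuvB, Myc or p53 are known to control differed in their counts. Of 24 G1/S genes 4 rose and none fell, 23 changes were positive, and the median was 0.81. Mcm6, a subunit of the replicative helicase, measured 9.32 ± 0.44 in HCC and 6.66 ± 0.56 in control liver (6.33-fold, adjusted p = 0.0102). Lig1, the replicative DNA ligase, measured 8.96 ± 0.52 in HCC and 6.90 ± 0.24 in control liver (4.17-fold, adjusted p = 0.0177). Of 25 genes of G2 and mitosis 1 rose and none fell, all 25 changes were positive, and the median was 1.35. That gene was the topoisomerase Top2a (8.70 ± 1.07 in HCC and 5.91 ± 0.10 in control liver, 6.89-fold, adjusted p = 0.0409). In each of these lists 19 genes had groups that did not overlap. Of 20 growth targets of Myc, the nucleolar protein Nop58 rose (10.24 ± 0.41 in HCC and 9.18 ± 0.18 in control liver, adjusted p = 0.0497), none fell, and the median was 0.16. Of 16 p53 targets none passed, with a median of 0.10, and the polymerase Polk had the smallest adjusted p (0.117; 7.86 ± 0.26 in HCC and 7.29 ± 0.28 in control liver).

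**Figure D4:**
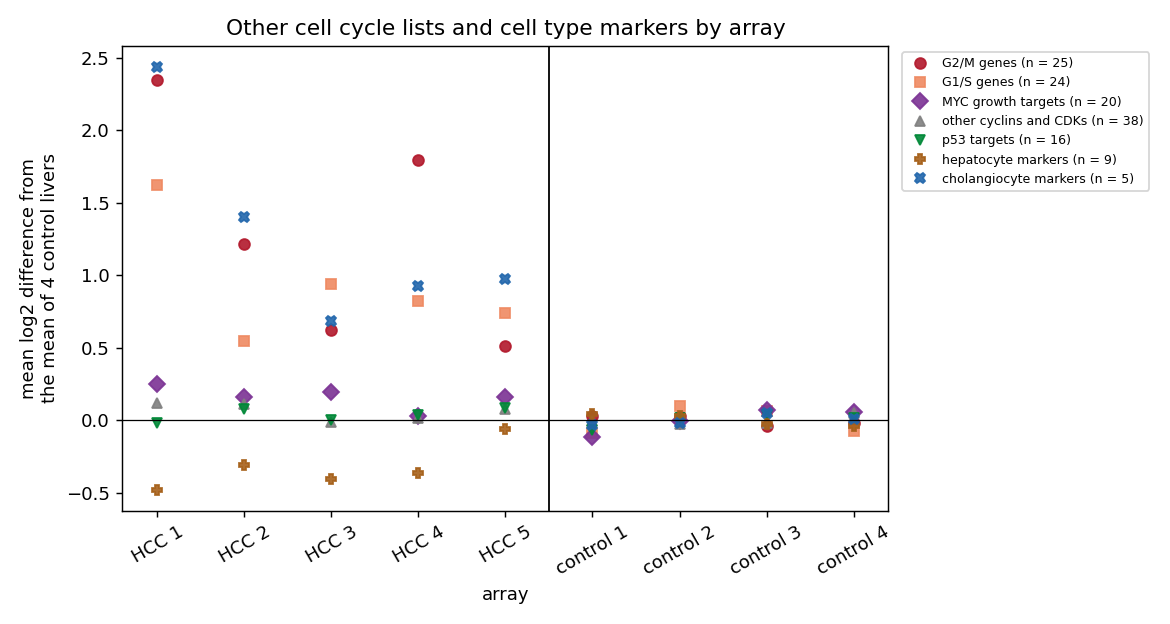
Mean log2 difference from the control mean, over the measured genes of each list, on each of the 9 arrays (HCC left, control right). The G2 and mitosis list was highest on HCC arrays 1 (2.35) and 4 (1.79) and lowest on HCC array 5 (0.51), while Myc and p53 targets and the other cyclins stayed within 0.25 of the control mean.

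Markers of cell types are given beside these results, and among them only Sox9 passed. Hepatocyte markers, which define the labelled tissue, were strong on all arrays, with a summed log2 intensity of 16.10 to 16.49 in HCC and 16.50 to 16.58 in control liver, a negative change in 9 of 9 and none past the threshold (smallest adjusted p 0.106, for the urea cycle enzyme Cps1). Cholangiocyte markers had a positive change in 5 of 5, Sox9 among them (adjusted p = 0.0228). Their sums were 9.82 to 11.80 in HCC and 8.79 to 8.91 in control liver. Their mean was highest on HCC array 1, the array with the highest Cdk1 and Ccna2, but the markers did not all peak there. Cftr measured 10.85 on HCC array 1, against 5.57 to 6.82 on the other tumours, and Krt19 was also highest there. Krt7 was lowest there among the tumours, while Epcam was highest on HCC array 2 and Sox9 on HCC array 4. Myeloid markers summed to 10.44 to 13.73 in HCC and 10.43 to 11.91 in control liver (none of 7 passed), with the highest mean difference, 2.02, on HCC array 2, the array with the highest Myc and Cdc25a. T, NK and B cell markers summed to 9.04 to 9.59 in HCC and 9.27 to 9.38 in control liver (none of 8 passed). Endothelial markers summed to 10.46 to 11.32 in HCC and 10.77 to 11.08 in control liver (none of 6 passed), and stellate and fibroblast markers to 10.764 to 12.008 in HCC and 11.679 to 11.997 in control liver (none of 7 passed). Such sums follow the brightest markers. Of the 7 stellate and fibroblast markers, 5 had a positive change, with a mean difference of 0.03 to 0.27 in HCC and -0.05 to 0.05 in control liver. For erythroid cells only Alas2 was measured, at 7.18 to 10.37 in HCC, the highest on HCC array 5, and 7.51 to 8.12 in control liver (adjusted p = 0.887). The genes with the smallest adjusted p in these lists were Clec4f of Kupffer cells (log2 change -1.10, adjusted p = 0.308), Cd4 (-0.17, 0.329), the endothelial receptor Kdr (-0.64, 0.113) and the actin Acta2 of activated stellate cells (1.09, 0.139). These single genes do not stand for their lists. Positive changes were seen in 4 of 7 myeloid, 3 of 8 T, NK and B cell and 3 of 6 endothelial markers. The part of these cell types in the results was not tested.

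How many regulators passed depended on single arrays. Without HCC array 5, which had the highest Alas2 and the hepatocyte markers nearest to control liver (mean difference -0.06, against -0.48 to -0.31 on the other tumours), 9 of 39 were higher, against 3.16% of all genes, and 0 were lower, against 2.79%. These were Rbl1, Cdk4 (adjusted p = 0.0226), Cdk1 (0.0270), Ccnd1 (0.0306), Cdkn3 (0.0394), Ccna2 (0.0397), Cdc25c (0.0432), Cdkn2c (0.0463) and Max (0.0484). Without control array 1, 2, 3 or 4 no regulator passed, against 0.0752%, 0.0652%, 0.0502% and 0.155% of all genes, while 12 to 14 of 39 were higher at an unadjusted p under 0.05, against 8.23%, 8.68%, 8.22% and 9.19% of all genes. With dim genes removed, 3 of the 25 regulators left were higher (Rbl1, Cdk1 and Cdk4), against 2.86% of the 9969 genes tested. Genes were kept there if their mean over all 9 arrays was above that of the median gene (6.832). The control means of Rbl1 (6.392) and Cdk1 (6.828) were below this, so both stayed in only through their HCC arrays. Their calls under this filter are therefore no separate support. With array weights, 4 were higher (Rbl1, Cdk1, Cdk4 and Ccnd1), against 2.52%, and with the replicate number as a block 2 were (Cdkn2c and Cdc25c), against 1.3%. With the Xist level as a covariate Rbl1 kept its call (log2 change 1.22, adjusted p = 0.0439), and Cdk1 (1.98, adjusted p = 0.0475) and Max (0.81, adjusted p = 0.0465) passed as well, against 1.02% of all genes.

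**Figure D5:**
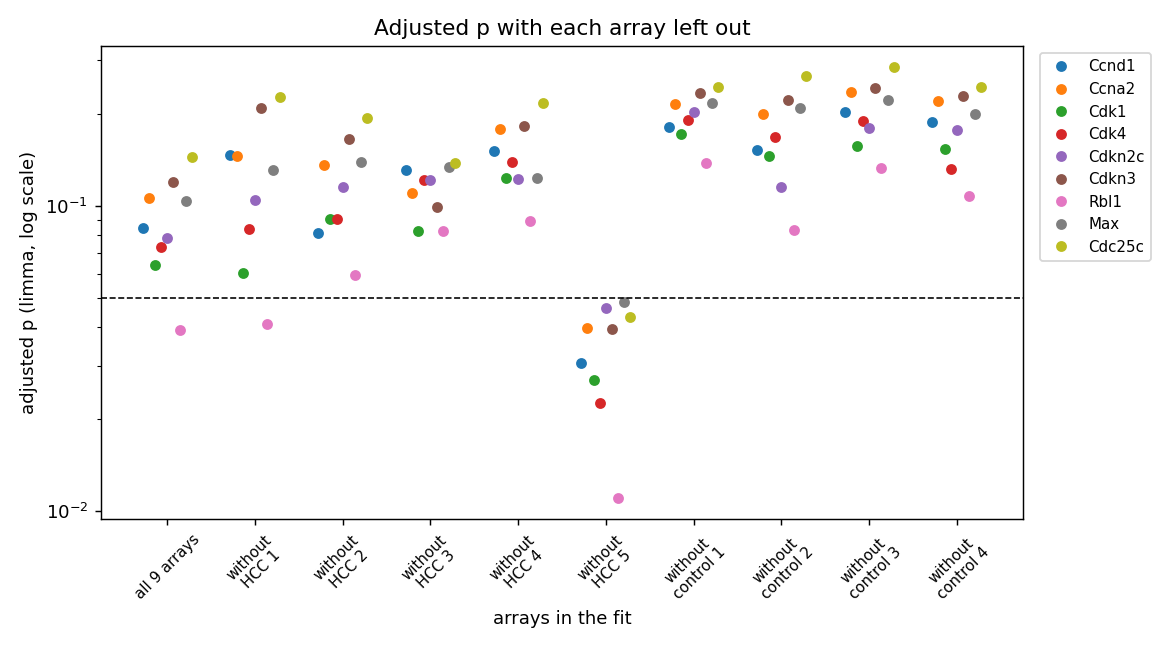
Adjusted p in limma (log scale) of the 9 regulators that passed under at least 1 setting, for the fit of all 9 arrays and with each array left out, with the dashed line at 0.05. All 9 lie below the line without HCC array 5, only Rbl1 lies below it with all arrays and without HCC array 1, and none does without any 1 control array.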

How the data were processed

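The authors deposited 1 table of RMA intensity values, per the submitters' processing notes, and name GenePattern and R in the series text; versions are not given in the sources used here. Their range (3.91 to 21468) shows a linear scale, so log2 was taken, with no floor or pseudocount. Of 35512 probe sets, 21789 had 1 gene symbol in the platform annotation, 1621 had several and 12102 none. The first kind gave 19938 genes, and 21698 matched a RefSeq table by Entrez identifier. The 5 HCC and 4 control arrays entered 1 limma fit (version 3.58.1, lmFit and eBayes, R 4.3.3) with a term for group alone. Its two-sided p-values were adjusted by Benjamini-Hochberg across 19938 genes. Values on every array are given for genes that passed, whose groups did not overlap or with the largest SD among tumours, and for some others chosen after their values were seen. From each other list up to 2 genes that passed, or the one with the smallest adjusted p, were named. The members and lists were chosen with earlier results of these data known. Alternatives were a filter on dim genes, 2 other scalings, another variance model, array weights, averaged or separate probe sets, Xist as a covariate, the replicate number as a block and leaving out each array. No detection calls entered, and a low intensity is not absence. The number of arrays limits the precision. Tables and plots used Python 3.11.15, pandas 2.3.3, numpy 2.4.6 and matplotlib 3.10.9.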

Additional observations from a re-analysis of the deposited data

Results flagged for a closer look

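In 10 of 96 groups of 4 or 5 arrays, 1 array stood far from the others of its group. The rule was a gap over range above 0.71 for 5 arrays and 0.829 for 4. For independent normal values chance gives about 1 in 20. That rate cannot be set against this count, because the genes share the same 9 arrays and some groups hold identical values. E2f1 and Mycn, for example, each have an identical value on HCC arrays 2, 4 and 5. Among the tumours, HCC array 3 was apart for E2f1 (6.53, the highest) and E2f8 (6.02, the lowest). HCC array 1 was apart and highest for E2f6 (9.24), Mycn (7.12) and Cks1b (11.11). Among the controls, the lowest value was apart for Ccne1 (6.33, control array 2), Ccng2 (6.97, control array 4), E2f4 (7.13, control array 3), E2f7 (6.96, control array 2) and Top2a (5.76, control array 4). For E2f4 the other 3 controls lay between 7.34 and 7.36, just under the lowest tumour at 7.37. None of these 10 genes passed the test except Top2a.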

How the results depend on the processing

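The number of genes past the threshold, 203 in all, was 378 with dim genes removed, 749 with array weights and 479 with the replicate block, and 10 to 1187 with 1 array left out. The number of cell cycle regulators that passed, 1 of 39, was 3 with dim genes removed (25 of the 39 tested), 4 with array weights, 3 with the Xist covariate and 2 with the replicate block, and 0 to 9 with 1 array left out. The filter on dim genes used the mean over all arrays, HCC arrays included. None was lower under any of these alternatives (0 or 1 at an unadjusted p under 0.05). The count of 12 whose groups did not overlap was 11 to 13 under other scalings and averaged probe sets. The share of all genes was then 5.17% to 5.72%. With 1 array left out the count was 12 to 16, against 5.99% to 7.96% of all genes. Both the 16 and the 7.96% are from the fit without HCC array 5. Under the replicate block Cdkn2c (adjusted p = 0.0361) and Cdc25c (0.0497) passed and Rbl1 (0.0579) did not. HCC array 5 has no control of its number and adds nothing there. The numbers share no source in the labels, and deviations of same-numbered arrays correlated across genes at -0.004, 0.32, -0.03 and -0.08, so they were not taken as pairs. The sign of the change was kept by 35 of the 39 genes under all alternatives run. It turned for Ccng2 (-0.030 without control array 4, leave-one-out range -0.030 to 0.30), E2f6 (-0.038 without control array 1, -0.14 without HCC array 1, range -0.14 to 0.14), E2f8 (0.093 with the Xist covariate, 0.018 without control array 2, 0.27 without HCC array 3, range -0.31 to 0.27) and Cdc25b (-0.018 with array medians subtracted, -0.0086 with array weights, -0.015 without control array 4, -0.0074 without HCC array 2, range -0.015 to 0.011). These 4 did not pass under any alternative, and the causes were not tested.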
